A study of Mus musculus with 4 samples.

Results

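The genes described here are the core of the Notch pathway: the receptor genes Notch1, Notch2, Notch3 and Notch4, the ligand genes Jag1, Jag2 and Dll1, the gene of the DNA-binding partner Rbpj, and the target genes Hes1 and Hey1. They were chosen by name, as every probe set whose platform gene symbol was one of these, which gave 20 probe sets of 10 genes among 45101 probe sets and 18193 genes with a symbol of their own. Each was measured on 1 Affymetrix array at each of 4 times in bone marrow cells of female C57Bl/6J mice aged 12 weeks. The arrays were of fresh marrow on day 1, of marrow after a preculture of 3 days with vitamin D3 (10 nM) and 10% serum on day 4, and of cells that then also received M-CSF (20 ng/ml) and RANKL (40 ng/ml) on days 5 and 7. No array of days 5 or 7 lacked these cytokines, so their effect and that of time in culture cannot be told apart. The labels do not say whether the arrays share a culture or how many mice were pooled.

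In Notch signalling, a ligand of the Jagged or Delta-like family on a neighbouring cell binds a Notch receptor, which is then cut by ADAM proteases and gamma-secretase. The freed intracellular domain enters the nucleus and, with Rbpj and Mastermind-like coactivators, switches on genes such as Hes1 and Hey1, which encode transcriptional repressors. Rbpj without Notch holds corepressors at the same sites. In bone, Notch1 and Notch2 have been linked to opposite effects on osteoclast formation, Notch1 restraining it and Notch2 promoting it, and marrow stroma and endothelium are known sources of Jagged1.

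With 1 array per time there was no test, and each value describes these 4 arrays only. Signals are the deposited linear intensities, and 32.4, the median of all values, was used as a floor for low signals. Differences of 2-fold or more were called, which is a threshold of size, and a difference is given as "at least" so many fold where 1 of the arrays lay at or below the floor. Of the 20 probe sets 9 were above the floor on all arrays, 6 on some and 5 on none, and of the 10 genes 5 were above it on all arrays and 5 on some. Signals of different probe sets are not on a common scale, so each gene is compared with itself between days. As a measure of technical precision, log2 differences of probe sets of the same gene had a pooled SD of 0.41 for day 4 against day 1, 0.29 for day 5 against day 4 and 0.26 for day 7 against day 5. For genes with a mean log2 signal under 7 these SDs were 0.49, 0.37 and 0.36.

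Every sample is labelled as primary osteoclasts. Of 10 osteoclast markers 6 were above the floor on day 1, where Calcr, Dcstamp, Ocstamp and Oscar were not, 9 on day 4 and all 10 on days 5 and 7, while 9 of 9 neutrophil markers and 13 of 13 stromal and osteoblast markers were still above it on day 5. Markers of other cell types were thus above the floor on every array, and fewer cells of a type and less RNA per cell cannot be told apart.

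The upstream sequences of 5 members are shown because Notch1 and Notch2 were lower together, Jag1 and Notch3 were highest together on day 5, and Rbpj is the factor whose core motif was searched for. They are the 250 bases before the gene's start on the gene's own strand, 5′ to 3′, from RefSeq (GRCm38.p6), which had such windows for 8 of the 10 genes but not for Hes1 and Hey1. Capitals mark the Rbpj core TGGGAA or its reverse complement TTCCCA, and the site CACGCG or its reverse complement CGCGTG, to which Hes and Hey repressors can bind. The positions are chr2:26503823-26504072 (minus strand) for Notch1, chr3:98013288-98013537 (plus strand) for Notch2, chr17:32166891-32167140 (minus strand) for Notch3, chr2:137116521-137116770 (minus strand) for Jag1 and chr5:53590096-53590345 (plus strand) for Rbpj.
Notch1: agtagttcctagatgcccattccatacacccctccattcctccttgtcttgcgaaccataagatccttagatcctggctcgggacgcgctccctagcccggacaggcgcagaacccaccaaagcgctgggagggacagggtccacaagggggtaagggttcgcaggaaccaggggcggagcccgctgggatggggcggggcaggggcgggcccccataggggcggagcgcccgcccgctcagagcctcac
Notch2: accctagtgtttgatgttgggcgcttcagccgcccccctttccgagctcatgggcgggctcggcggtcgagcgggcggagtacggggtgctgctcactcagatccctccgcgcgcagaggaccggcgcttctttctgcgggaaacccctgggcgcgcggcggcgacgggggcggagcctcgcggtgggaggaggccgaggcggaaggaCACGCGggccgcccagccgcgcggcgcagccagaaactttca
Notch3: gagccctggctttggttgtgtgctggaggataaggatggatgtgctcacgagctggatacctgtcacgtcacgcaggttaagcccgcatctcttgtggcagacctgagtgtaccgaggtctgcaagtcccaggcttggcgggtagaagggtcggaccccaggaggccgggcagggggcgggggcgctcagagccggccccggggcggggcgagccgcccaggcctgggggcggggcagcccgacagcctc
Jag1: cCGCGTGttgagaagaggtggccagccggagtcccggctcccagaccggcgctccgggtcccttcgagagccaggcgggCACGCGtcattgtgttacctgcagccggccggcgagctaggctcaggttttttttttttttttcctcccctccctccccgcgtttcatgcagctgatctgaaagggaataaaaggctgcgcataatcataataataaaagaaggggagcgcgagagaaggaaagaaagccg
Rbpj: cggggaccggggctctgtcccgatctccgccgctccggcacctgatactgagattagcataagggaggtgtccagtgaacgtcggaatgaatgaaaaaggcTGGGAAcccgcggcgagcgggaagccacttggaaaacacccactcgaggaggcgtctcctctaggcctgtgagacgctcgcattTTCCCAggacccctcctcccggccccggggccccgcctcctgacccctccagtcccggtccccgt

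Among the 10 windows of the 8 genes, the Rbpj core was found only upstream of Rbpj itself, starting 149 and 65 bases before its start. The latter match also lies in the overlapping window of another Rbpj start. Of 32851 such windows of all genes, 21.6% held the core and 5.42% its longer form GTGGGAA, which contains the core and was in no window of a member. The site CACGCG was found upstream of Jag1 (2 matches), of Notch2 and of 1 start of Dll1, against 7.62% of all windows. This site is rich in G and C, and the 10 windows held between 56.0% and 87.2% of these bases. The mean over all windows was 53.2%. The part of base composition in these matches was not tested. The E-box CACGTG, in 6.02% of all windows, was in none of these 10. A match is a run of letters only, and the windows are short.

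Among the receptors, Notch1 and Notch2 were lower at every later time in the deposited values, whereas Notch3 and Notch4 were highest on day 5. The signal of Notch1, the receptor best known from T cell development, was 1525, 732, 381 and 220.1 on days 1, 4, 5 and 7. Day 7 was thus 6.93-fold lower than day 1 and 3.33-fold lower than day 4, and both differences stayed above 2-fold under all 7 alternative settings of the processing. A lower or higher floor, and leaving out probe sets that may match several transcripts, returned the same values. Those settings could not change the calls. The single steps were smaller, with log2 differences of -1.06, -0.94 and -0.79. Another Notch1 probe set had signals of 233, 152, 79.0 and 63.0, the same order of days, and was 3.69-fold lower on day 7 than on day 1. On day 4 over day 1 its log2 difference was -0.61, and the mean over both probe sets, -0.84, did not reach 2-fold.

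Notch2 had signals of 2147, 1536, 850 and 775 on days 1, 4, 5 and 7. Most of this decline lay before day 5, with log2 differences of -0.48 on day 4 and -0.85 on day 5, and days 5 and 7 differed by -0.13, less than the SD of 0.26 between probe sets. That last difference was -0.03 after quantile normalization and 0.04 with median scaling. Day 7 was 2.77-fold lower than day 1. Its other probe set read between 3.19 and 21.5, below the floor on every array, and adding it to the mean reduced the day 7 over day 1 difference to -0.74.

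Beside these receptors, the markers of B cells and neutrophils were lower too. The summed signal of 9 B cell markers was 7793, 5711, 2984 and 3046 on the 4 days, with 9, 8, 5 and 4 of them above the floor and Pax5 below it from day 4 on. Over 9 neutrophil markers it was 109379, 68103, 36868 and 5264, and over 8 markers of T and NK cells 1074, 173, 189.5 and 124, with Cd3e and Cd4 below the floor on every array. The later B cell sums were carried by Blnk, which read 2076, 2824, 2059 and 2564, while 7 of the 9 B cell markers passed 2-fold lower between days 1 and 7. Their median log2 difference was -2.60, against -1.47 for Notch2 and -2.79 for Notch1, and that of the neutrophil markers was -5.59. The part of these cells in the Notch1 and Notch2 signals was not tested.

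Notch3, a receptor known from mural cells of vessels, had signals of 44.2, 108, 221 and 139. It was 2.44-fold higher on day 4 than on day 1, 2.04-fold higher on day 5 than on day 4, and 3.14-fold higher on day 7 than on day 1, after a log2 difference of -0.67 between days 5 and 7. These values rest on 1 probe set, which may match several transcripts; the other stayed between 13.4 and 21.0, below the floor. Without the former, Notch3 has no measured value, and with the mean of both none of these differences reached 2-fold (0.64, 0.52 and 0.82). Notch4, a receptor of endothelium, was below the floor on day 1 at 27.2 and had signals of 63.4, 96.7 and 43.2 on days 4, 5 and 7. It was 2.24-fold lower on day 7 than on day 5, a call that was kept by 2 of 7 alternatives. Its remaining 2 probe sets were below the floor throughout.

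**Figure D1:**
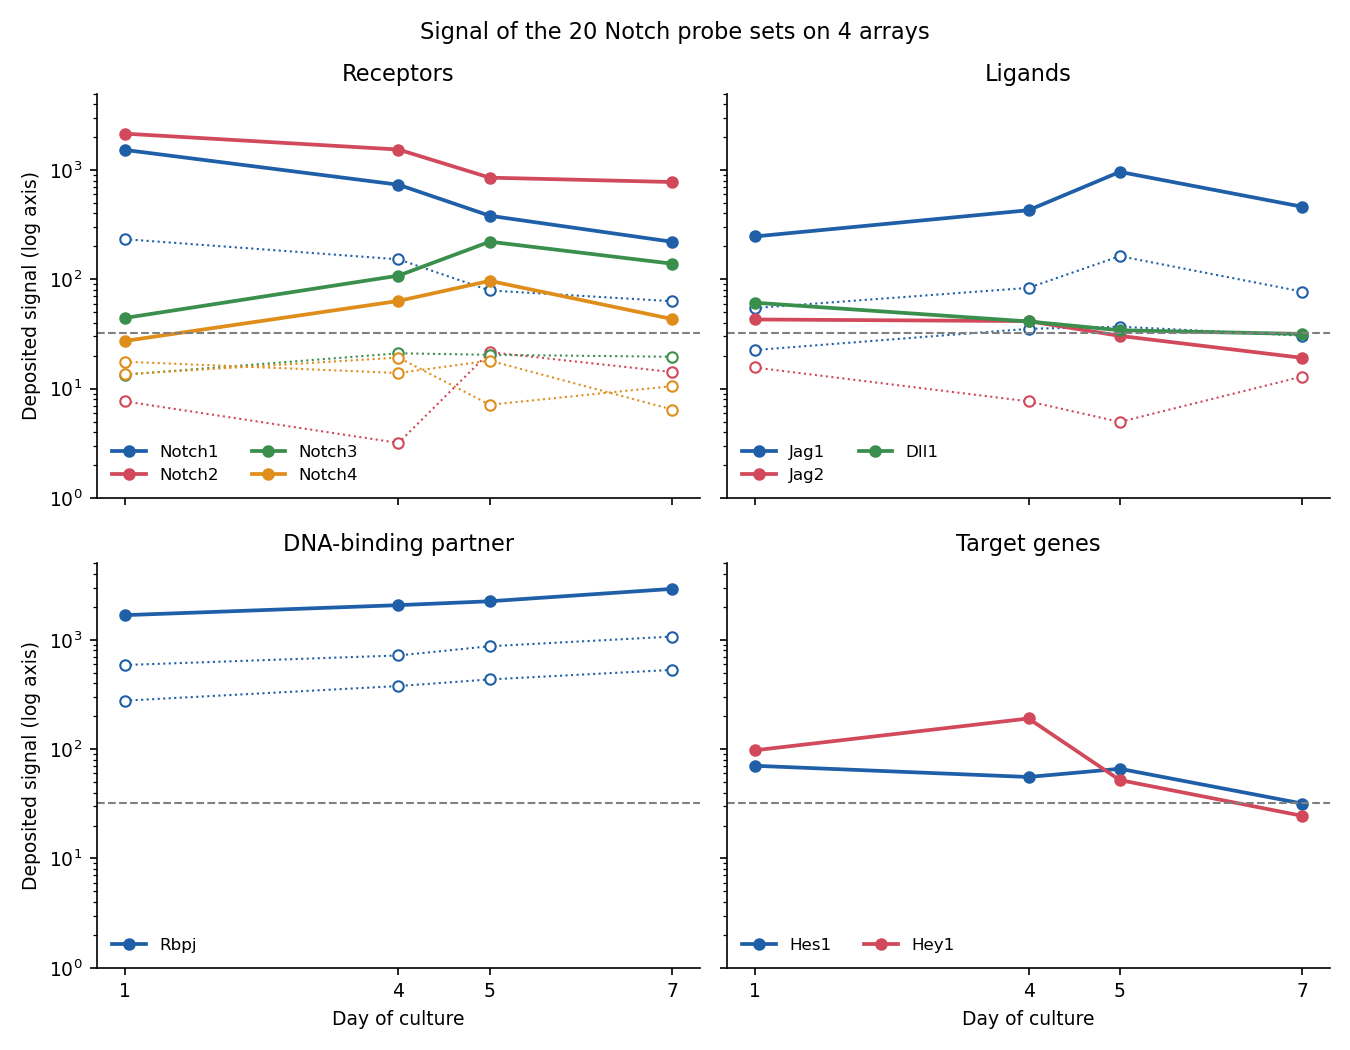
Deposited signal (log axis) of all 20 probe sets against day of culture, in panels of receptors, ligands, Rbpj and targets; filled points and solid lines are the probe set that stands for the gene, open points and dotted lines its other probe sets, and the dashed line is the floor of 32.4. Notch1 and Notch2 are lower at each later day, Jag1, Notch3 and Notch4 peak on day 5, and Rbpj is highest on day 7.

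The ligand genes parted as well. Jag1 was the only ligand well above the floor, and it peaked on day 5: its signals were 246, 428, 960 and 460 in the order of days. Day 5 was 2.24-fold higher than day 4, and day 7 2.09-fold lower than day 5, so that days 4 and 7 differed by a log2 value of 0.10, within the SD between probe sets of 0.36. Another Jag1 probe set gave 54.6, 83.4, 163 and 77.1, with log2 differences of 0.96 and -1.08 over the same steps. The third read 22.5, 35.2, 36.8 and 30.5, close to the floor, and the mean over all of them had differences of 0.73 and -0.77.

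Jag2 was near or below the floor, at 42.9, 41.4, 30.4 and 19.1, and its other probe set did not exceed 15.6. Dll1 read 61.1, 41.1, 34.2 and 31.6, with a log2 difference of -0.57 on day 4 over day 1 and a level on day 7 at least 1.88-fold below that of day 1. Neither ligand passed 2-fold in any comparison. For Dll1 the step from day 1 to day 4 exceeded the SD between probe sets of dim genes (0.49), and the later steps did not. After quantile normalization this first step was -0.41, less than that SD, which holds no spread between cultures or mice. Between days 5 and 7 the Dll1 difference of -0.08 became 0.21 after quantile normalization and 0.06 with median scaling. Jag2 differed by -0.05 on day 4 over day 1, within that SD, and only bounds are given after day 4.

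The summed signal of stromal and osteoblast markers was highest on day 5, as were Jag1 and Notch3, but the steps before it differed. Of 13 such markers 12 were at least 2-fold higher on day 4 over day 1, with a median log2 difference of 3.40. On day 5 over day 4, where Jag1 and Notch3 passed 2-fold, 0 of these markers were higher by that much (median 0.39). The summed signal of 13 such markers was 3383, 35659.5, 47446 and 29664 on days 1, 4, 5 and 7, with 11 of 13 above the floor on day 1 and all 13 later. As a share of its highest day this sum was 7.13%, 75.2%, 100% and 62.5%, while Jag1 was at 25.7%, 44.6%, 100% and 48.0% and Notch3 at 20.0%, 48.9%, 100% and 62.9%. The summed signal of 10 osteoclast markers was at 15.4%, 50.2%, 84.7% and 100% of its highest day. It was thus still higher on day 7 (55361) than on day 5 (46872). The summed signal of 11 endothelial markers was 1535, 1515, 1163 and 647. Tie1 and Flt1 were below the floor on every array and Tek from day 4 on. The part of stromal or endothelial cells in the Jag1, Notch3 and Notch4 signals was not tested.

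**Figure D2:**
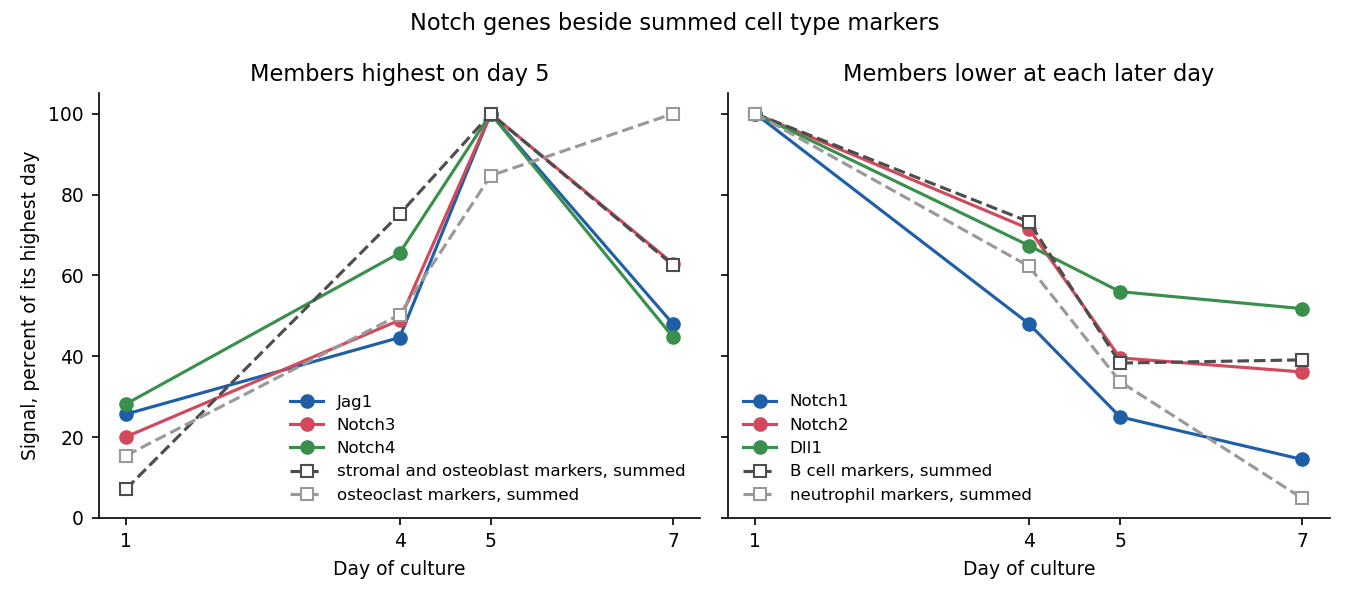
Signal as a percent of its highest day against day of culture for 3 members that peaked on day 5 (left) and 3 that were lower at each later day (right), with the summed signal of cell type markers as dashed lines. The stromal and osteoblast sum peaks on day 5 with Jag1, Notch3 and Notch4, and the B cell sum, carried by Blnk on the later days, and the neutrophil sum are lower on day 7 than on day 1.

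Rbpj, which carries Notch signals to DNA, was the only member that was higher at each later time. Its signal was 1681, 2075, 2252 and 2924 on days 1, 4, 5 and 7. Both other probe sets had the same order of days, with 588, 720, 874 and 1071, and with 278, 378, 434 and 531. The difference did not reach 2-fold: day 7 over day 1 was 1.74-fold, 1.82-fold and 1.91-fold by the 3 probe sets. On day 5 over day 4 the difference of the gene's leading probe set was 0.12, and it was -0.0035 after quantile normalization.

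The target genes were low, and both were below the floor on day 7. Hey1 had signals of 97.6, 191, 52.1 and 24.5 over the 4 days. Relative to day 4 it was 3.66-fold lower by day 5 and at least 5.88-fold lower by day 7, and both differences passed 2-fold under all 7 alternatives. Hey1 has 1 probe set, so the mean over probe sets could not change them. Leaving out probe sets that may match several transcripts returned the same values. Relative to day 1 Hey1 was at least 3.01-fold lower by day 7, a call lost with the higher floor of 68.9 (-0.50). The day 4 over day 1 difference of 0.97 lay just under the threshold. Hes1 read 70.5, 55.7, 66.2 and 31.8, so that the first 3 times were within a log2 difference of 0.34 of each other and day 7 stood lower. Its day 7 signal, just under the floor, was at least 2.04-fold below that of day 5 and at least 2.17-fold below that of day 1. Those calls were lost with 16 added to each signal (-0.78 and -0.86) and after quantile normalization (-0.73 and -0.57). Median scaling ended the former (-0.88) and the higher floor the latter (-0.03). Each target has 1 probe set, so no other probe set could be compared.

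Hey1 thus turned down between days 4 and 5, the step on which Jag1 and Notch3 were more than 2-fold higher. Notch1, Notch2 and Hey1 had log2 differences of -0.94, -0.85 and -1.87 on that step, against 1.16 for Jag1, 1.03 for Notch3 and 0.25 for Hes1. Markers of several cell types were lower on that step as well. Of 8 megakaryocyte markers 7 were at least 2-fold lower, with a median log2 difference of -2.06, although their sum, carried by Pf4, was at 68.9% of its highest day. Of 9 neutrophil markers 7 were lower, as were 3 of 8 B cell (median -0.72) and 3 of 7 dendritic cell markers (median -0.66). The same held for 2 of 6 mast cell, basophil and eosinophil, 1 of 8 endothelial (median -0.30) and 1 of 10 macrophage markers. Of all genes 4.04% were lower. Of 13 stromal and osteoblast, 10 osteoclast, 3 T and NK cell and 2 erythroid markers 0 were lower. The dendritic cell, megakaryocyte and macrophage sums were highest on day 4, like Hey1. Whether any of these cell types accounts for the Hey1 signal was not tested.

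**Figure D3:**
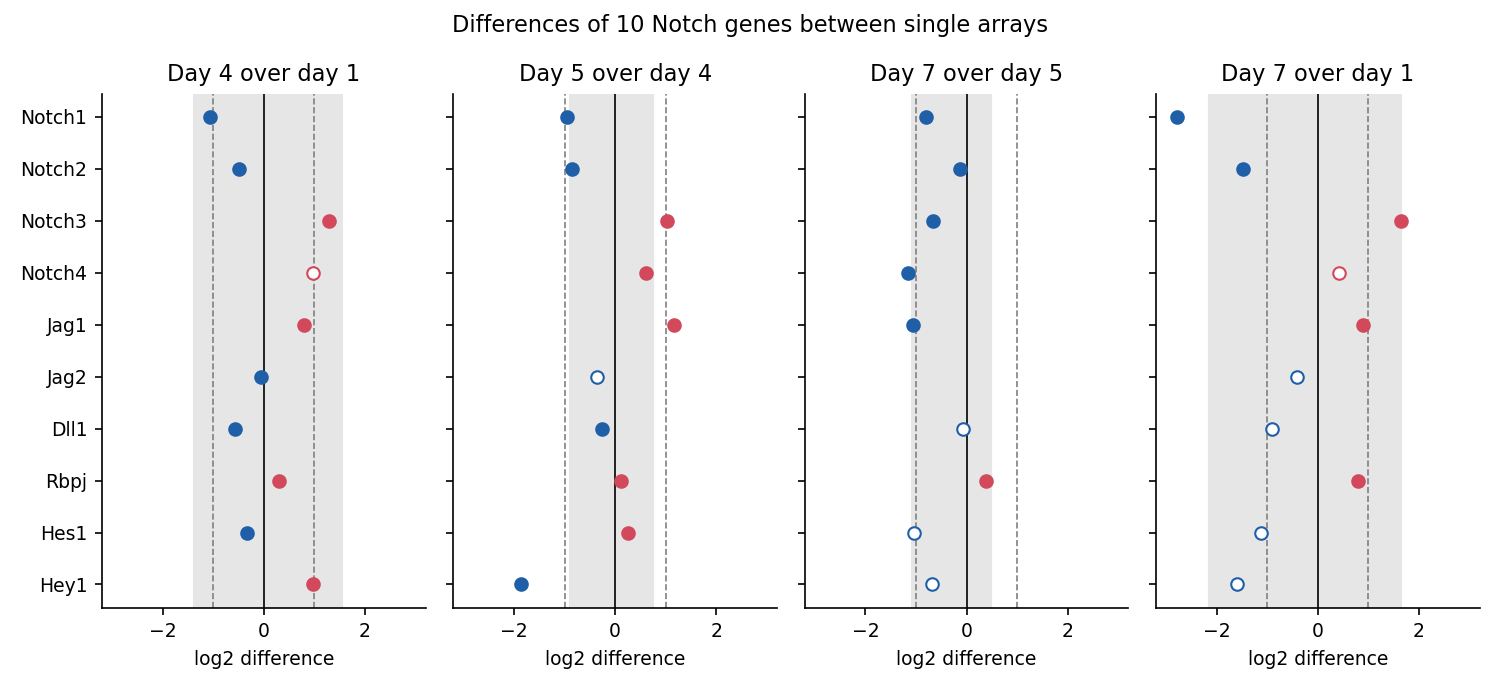
Difference in log2 signal of the 10 members in 4 comparisons of single arrays, red where higher and blue where lower on the later day, with open points for bounds where 1 array lay at or below the floor; dashed lines mark 2-fold, and the grey band runs from the 5th to the 95th percentile of all genes tested. Hey1, Jag1, Notch3 and Notch1 lie outside the band on day 5 over day 4, and Notch1 and Notch3 on day 7 over day 1.

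Counted over the list, 1 member was at least 2-fold higher (Notch3) and 1 lower (Notch1) on day 4 over day 1, where 18.7% of all genes tested passed 2-fold (10.0% higher, 8.65% lower). On day 5 over day 4, 2 were higher (Jag1 and Notch3) and 1 was lower (Hey1), against a background of 6.07% (2.02% higher, 4.04% lower). On day 7 over day 5, of 9 members above the floor on either array, 3 were lower (Notch4, Jag1 and Hes1), against 6.69% of all genes (0.853% higher, 5.84% lower). For day 7 over day 4 the count was 2 lower (Notch1 and Hey1), with 12.2% of all genes past 2-fold (3.12% higher, 9.12% lower). Day 7 over day 1 had 1 higher (Notch3) and 4 lower (Notch1, Notch2, Hes1 and Hey1), with 28.9% in the background (12.7% higher, 16.2% lower). The median log2 difference of the members, bounds included, was 0.13, -0.07, -0.68, -0.45 and -0.66 in the same order. That of all genes tested was 0.06, 0.06, -0.11, -0.09 and 0.01. Over the 9, 9, 6, 6 and 5 members above the floor on both arrays, the medians were -0.05, 0.12, -0.73, -0.22 and 0.80. The sign for day 7 over day 1 thus depends on whether members with bounds are counted. These comparisons share arrays and so are not independent of each other.

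Differences that involve day 7 moved with the scaling of the arrays. Between days 5 and 7, genes with both signals above the floor had a median log2 difference of -0.11 in the deposited values, 0.03 with quantile normalization and 0.06 with scaling to a common median. Of all genes called on that comparison, 12.7% were higher in the deposited values, 31.6% with quantile and 27.2% with median scaling. For day 7 over day 4 this share was 25.5%, 43.7% and 39.9%, and for day 7 over day 1 it was 43.9%, 56.2% and 53.1%. After either scaling 0 members passed 2-fold on day 7 over day 5. Relative to the median of all genes, Jag1 differed by -0.95, -0.94 and -0.95 under these 3 scalings. For Notch4 the values were -1.05, -0.83 and -1.05. For Hes1, whose deposited day 7 signal lay below the floor and gives a bound, they were -0.92, -0.76 and -0.95. Median scaling multiplies each array by a constant, which subtracting the median largely removes. Its likeness to the deposited values was thus fixed beforehand.

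Of 76 other genes of the pathway on the array, 61 were above the floor on day 1 or day 7, of which 7 were at least 2-fold higher and 13 lower on day 7, with a median of -0.23. In the background 12.7% of genes were higher and 16.2% lower. Coactivators and corepressors of Rbpj were lower in 7 of 14 cases, with none higher. The acetyltransferase gene Ep300, a coactivator, was 3.50-fold lower and its relative Crebbp had a log2 difference of -1.44; the corepressor gene Spen was 3.17-fold lower, L3mbtl3, a partner of Rbpj in repression, 3.70-fold, and Fhl1 5.28-fold. The log2 difference of Maml1, a Mastermind-like coactivator, was -1.07, and -0.75 by another probe set above the floor on both days. Genes of endocytosis and turnover of receptors and ligands were lower in 5 of 16 cases and higher in none: Neurl3 was at least 11.6-fold lower, Dtx1, a Deltex gene that Notch itself can switch on, 6.81-fold, Dtx3l 3.31-fold and the ubiquitin ligase gene Cbl 2.90-fold. Of a pair of other Cbl probe sets, the one above the floor on both days was also more than 2-fold lower, and the other, above it on 1 of them, had a difference of -0.33. Dtx1 read 244, 117, 52.2 and 35.8 over the 4 days, the same order of days as Notch1.

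None of 8 protease and gamma-secretase genes passed 2-fold in any of the 5 comparisons, of which day 7 over day 1 had 28.9% of all genes past it. The presenilin gene Psen2 had log2 differences of -0.86 between days 4 and 5 and -0.68 between days 1 and 7. Adam10, which makes the ligand-dependent cut, read 3438, 2943, 3490.5 and 2948. Of 5 genes that add sugars to Notch, Mfng was 2.03-fold lower on day 7 than on day 1; Lfng read 238, 217, 292 and 284.

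Of 16 other Hes, Hey and direct target genes, 8 were above the floor on day 1 or day 7 and 2 of them were higher on day 7: the cyclin D1 gene Ccnd1, from 196 to 4514 (23.0-fold), and the cell cycle inhibitor gene Cdkn1a (3.15-fold, with a log2 difference of 0.52 by another probe set). Both answer to many signals besides Notch. Nrarp, a feedback inhibitor of Notch, stayed close to the floor at 37.4, 18.5, 30.9 and 38.1, and Hes5 and Hey2 were below it on every array. Hes6 had a log2 difference of -0.79. Of 6 genes of the Groucho family, Tle5 and Tle2 were 2.33-fold and 2.16-fold higher and 4 did not pass 2-fold. Among 10 other and noncanonical ligands, Dll3, Dll4 and Dlk1 were below the floor on every array; Mfap2, Dner and Thbs2 were at least 9.14-fold, 2.84-fold and 2.51-fold higher on day 7 than on day 1. Another Mfap2 probe set was below the floor on both days, and another of Thbs2, above it on 1 day, had a difference of 0.65. Mfap2 and Thbs2 are matrix genes, and the stromal sums given above were higher on the same arrays. The part of stromal cells in the signals of Mfap2 and Thbs2 was not tested.

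**Figure D4:**
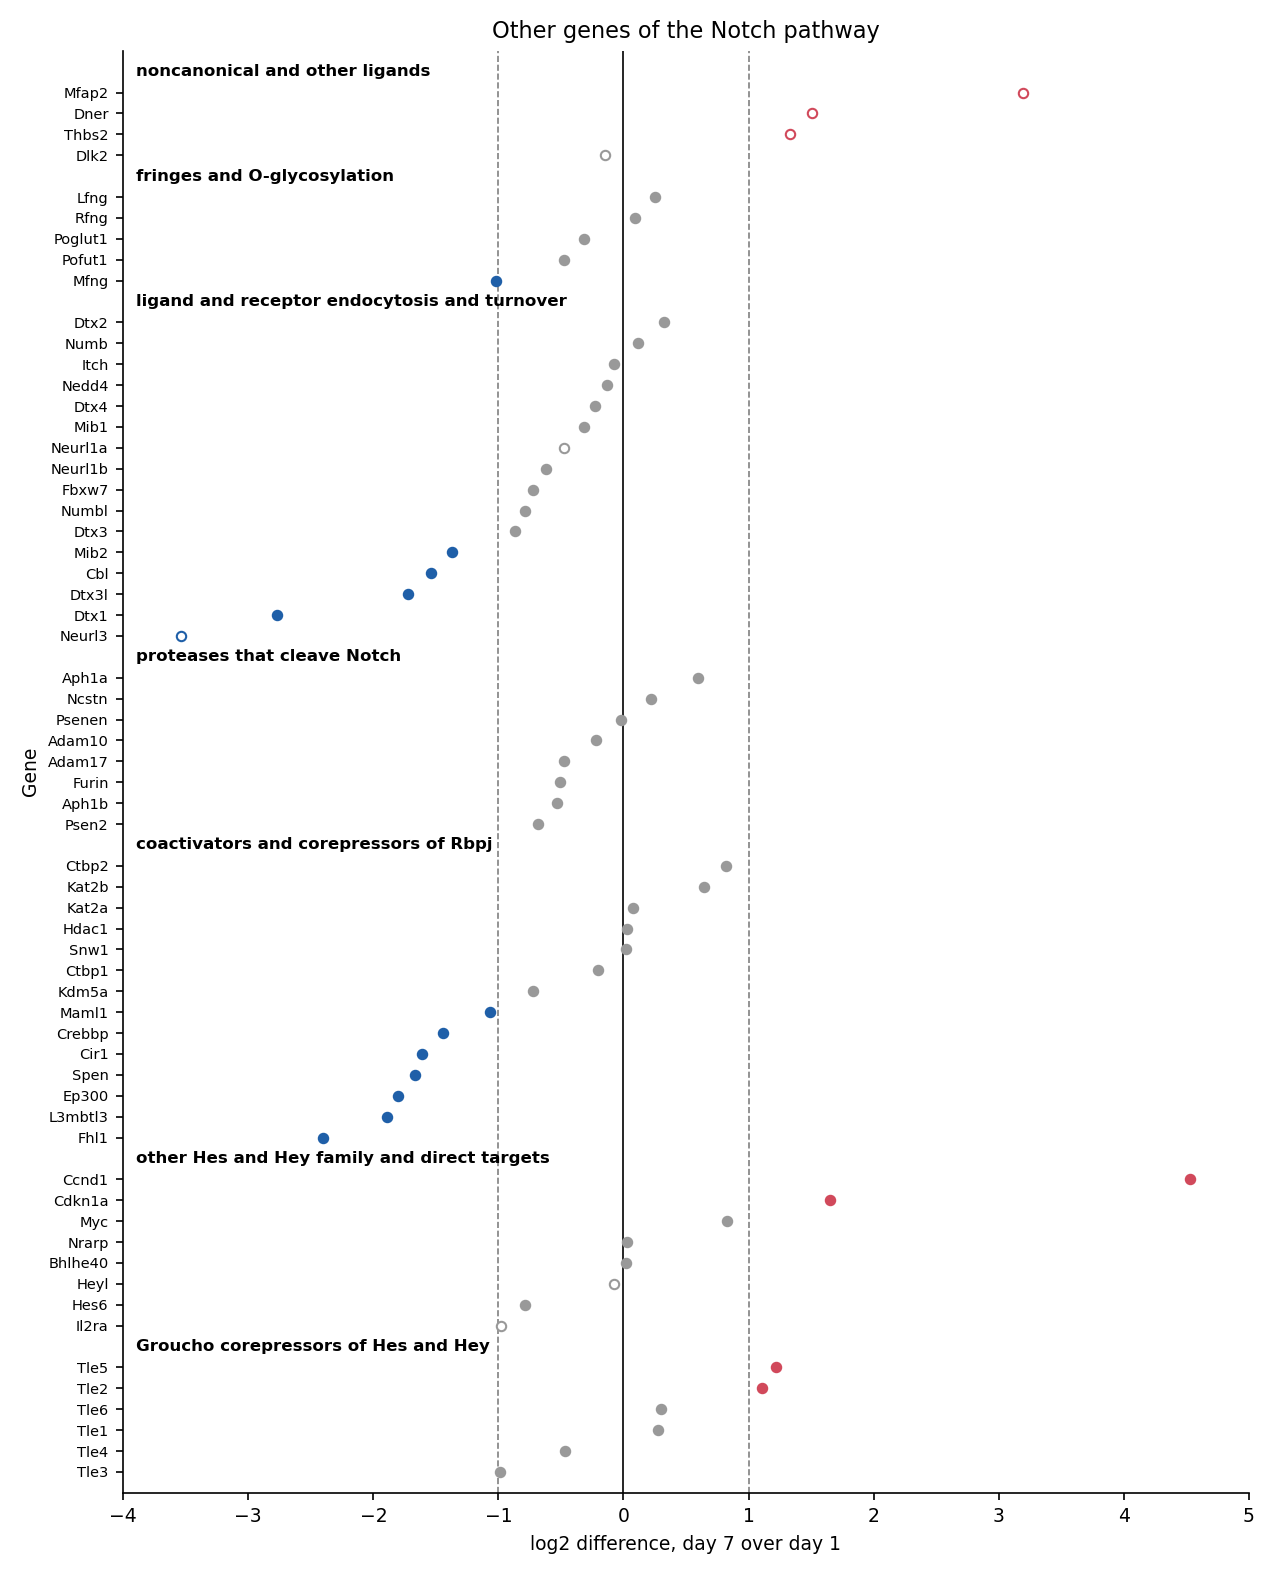
Difference in log2 signal, day 7 over day 1, of 61 other pathway genes by group, red at 2-fold higher, blue at 2-fold lower and grey otherwise, with open points for bounds; dashed lines mark 2-fold. Of the coactivators and corepressors 7 of 14 lie at or beyond 2-fold lower, and none of the 8 cleavage genes reaches it.

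Between the end points the steps of these genes differed. On day 4 over day 1, 7 were higher and 5 lower of 60, near the background of 18.7%, with Tle2 at 4.66-fold higher and the corepressor gene Cir1 2.76-fold lower. The next step had 3 higher and 4 lower of 58, against 6.07% of all genes, with Ccnd1 3.46-fold higher, and Dtx3 2.63-fold, Fhl1 2.65-fold, Neurl3 2.41-fold and Dtx1 2.23-fold lower. On day 7 over day 5, 0 were higher and 4 lower of 59, near the background of 6.69%, among them Nedd4, a ubiquitin ligase gene, at 2.68-fold and Neurl3 at least 2.82-fold. Day 7 over day 4 gave 2 higher and 9 lower of 58, against 12.2% of all genes, among them Fhl1 at 7.80-fold lower.

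The genes with profiles nearest to the members were found among 10034 genes above the floor on all 4 arrays, by the smallest value of the largest gap between centred log2 profiles over the 4 arrays. Nearest to Notch1 were Zfp950 (gap 0.05), the prostaglandin receptor gene Ptger4 (0.12) and the sulfotransferase gene Chst15 (0.12). Notch2 was nearest to Smim14 (0.03), Phactr2 (0.05) and Mtcp1 (0.07). For Notch3 they were the growth factor receptor gene Fgfr1 (0.06), Traf1 (0.08) and the collagen gene Col18a1 (0.11), and for Jag1 Cc2d2a (0.14), Adcy2 (0.17) and 2010204K13Rik (0.18). With 4 points that share arrays, a small gap is a description of shape only.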

How the data were processed

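Biotinylated cRNA was made from 250 ng of RNA per array, per the labels' protocols. The authors deposited 1 linear intensity per probe set and array; the submitters' processing notes name GCOS 1.4 and MAS5 and no scaling target. The 64 control probe sets were left out. A probe set was assigned to a gene where the platform annotation gave 1 symbol (34945 of 45037; 932 had several and 9160 none). A gene with several probe sets was represented by the one whose log2 signals, after the floor of 32.4, had the highest mean. Each group held 1 array, so no test was made; genes at the floor on both arrays were left out of a comparison. The trimmed mean signal lay between 277 and 296 and the median between 26.2 and 38.3. Precision is limited by the number of arrays. Log2 differences of 18 spiked controls had SDs between 0.07 and 0.17. The 2-fold call was tried on data simulated from the day 4 array, in which probe sets well above the floor were changed by more than 2-fold. The simulated noise was smaller than the SDs of dim genes. Changes near the floor or close to 2-fold were not simulated.

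Named genes were all members, up to 4 genes of each pathway list with the largest differences in a comparison, and the 3 nearest profiles of members above the floor on all arrays that varied at least 2-fold. Members and lists were chosen with earlier results of these data known. The motifs were chosen after the data were seen. The alternatives tried were a lower floor (25th percentile), a higher one (60th), no floor with 16 added, quantile normalization, median scaling, the mean over probe sets, and leaving out probe sets that may match several transcripts. Python 3.11.15, numpy 2.4.6, pandas 2.3.3 and matplotlib 3.10.9 were used.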

Additional observations from a re-analysis of the deposited data

How the results depend on the processing

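No paired analysis was possible because each time has 1 array. All 15 member differences called at 2-fold kept their direction under each of the 7 alternatives that gave a value, and 4 kept the 2-fold call under each: those of Notch1 between day 7 and days 1 and 4, and of Hey1 between day 4 and days 5 and 7. Of 322 member differences recomputed, 289 moved by less than the SD between probe sets, 33 moved by more and 0 of the called ones reversed. Part of this was fixed beforehand. Another floor or 16 added cannot reverse the direction of a given probe set. Another floor could not change the Notch1 calls either, since its leading probe set was above 68.9 on every array. Nor could the mean over probe sets change the calls of Hey1, which has 1 probe set. Leaving out probe sets that may match several transcripts took away the value of Notch3 and left those of all other members as they were. Of 70 counts recomputed, 54 stayed within 1.5 times the main count. The number of members past 2-fold on day 4 over day 1, 2 in the main setting, was 1 with the higher floor (68.9), 0 with the mean over probe sets and 1 without probe sets that may match several transcripts. On day 5 over day 4 it was 1 in place of 3 with the mean over probe sets. On day 7 over day 5 the 3 members became 1 with the higher floor, with 16 added and with the mean over probe sets, and 0 after quantile normalization and median scaling. On day 7 over day 1 the 5 became 3 with the higher floor and with the mean. Of the other pathway genes, 3 in place of 7 passed on day 5 over day 4 with the mean. On day 7 over day 5, 2 in place of 4 passed with the higher floor and with the mean. Without probe sets that may match several transcripts, 7 in place of 11 passed on day 7 over day 4 and 13 in place of 20 on day 7 over day 1. In these last settings fewer probe sets were counted. The cause of the other changes was not tested. Signals at or near the floor limit Jag2, Dll1, Hes1, Hey1, Notch3 and Notch4; the difference of Hey1 between days 4 and 7 ranged from -2.96 to -1.47.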
